A study of Mus musculus with 4 samples.

Results

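Il1a, Il1b, Il1rn, Tnf, Il6, Nfkbia, Tnfaip3, Nfkb2, Nlrp3 and Ptgs2, inflammatory cytokines of NF-kB and the genes that amplify or restrain them, were measured in primary hematopoietic stem and progenitor cells (HSPCs) with and without Chaf1b, which encodes a subunit of the histone chaperone CAF-1. The 10 genes were chosen by name, with earlier results of these data known. Each was matched to 1 of the 43629 gene identifiers of the count tables, and all 10 passed the low-count filter that left 16500 genes. CD117-enriched HSPCs of C57Bl/6 mice with floxed Chaf1b alleles were cultured in serum-free medium with SCF at 50 ng/mL, IL-3 at 10 ng/mL and IL-6 at 20 ng/mL, concentrations given in the labels. For IL-6 the methods of the paper give 10 ng/mL instead. Control cells, labelled Chaf1b (fl/fl), received the empty retroviral vector MIGR1, and the other cells, labelled Chaf1b (-/-), received MIGR1-Cre, whose recombinase excises the floxed sequence. The eGFP-positive cells were sorted after 48 h, and total RNA was sequenced from 2 libraries for each vector. Both groups were spinfected, and no cells without floxed alleles that received Cre were compared here. An effect of Cre itself cannot be told apart from the loss of Chaf1b. The mice were young adults of both sexes according to the methods, and the labels give neither age nor sex. The labels number the libraries but do not say whether these came from separate mice or cultures, so p-values measure the spread between the libraries, which may be technical.

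NF-kB is a family of transcription factors that IkB proteins such as the product of Nfkbia hold in the cytoplasm until an upstream kinase marks these for destruction. Once in the nucleus, NF-kB activates cytokine genes and also its own inhibitors, Nfkbia and Tnfaip3, so that the response restrains itself. In myeloid cells it also primes the inflammasome, in which Nlrp3 senses damage and directs the maturation of the IL-1 beta precursor made from Il1b. Il1rn encodes the secreted antagonist that competes with IL-1 for its receptor.

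Reads counted on genes numbered 18468637 to 25409926 per library, so that 3 counts, the floor used here, stood for 0.118 to 0.162 CPM (counts per 1000000 reads counted on genes). Chaf1b itself had 80.3 and 57.9 CPM in the control and 16.1 and 17.9 CPM in the Chaf1b-deleted libraries. Chaf1b-deleted replicate 1 stood apart from the other libraries. It had 336 CPM of Xist against 1.14 to 1.30 elsewhere, and the 20 interferon-stimulated genes examined summed to 2234 CPM, against 269 to 324 elsewhere. Transcripts of 4 Y-linked genes summed to 0.127 CPM there and to 306 to 324 CPM in the others, so this library had the transcripts of a female and the other 3 those of males, and the sex of its cells cannot be told apart from its other differences. Fitted values without that library are therefore given below for the 10 genes and Nfkbiz. For the other named genes no such fitted value is given. Transcripts of CD117 (Kit) lay between 95.6 and 124 CPM in all libraries, while the 10 neutrophil markers summed to 45450 to 66431 CPM. In bulk RNA, more cells of a type and more RNA per cell cannot be told apart.

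To show the control regions of the genes whose levels are compared, the 250 bases before the 5'-most RefSeq start of each gene (build GRCm38.p6) were searched on both strands for the kappaB consensus, the sequence to which NF-kB dimers bind. A match was present in 5 of the 10 windows (Nfkbia, Tnfaip3, Nfkb2, Nlrp3 and Il6), in 17 of 84 windows of the other pathway genes described below and in 7.04% of all 27018 windows. No match in Il1a, Il1b, Il1rn, Tnf or Ptgs2 says only that these letters were not in this window. The windows of the inhibitors Nfkbia and Tnfaip3 and of the subunit gene Nfkb2 are shown because their levels are compared beside those of Il1b, whose window is shown for contrast, and of Il6, whose level did not follow the others. Each is written 5' to 3' on the strand of the gene and ends at the base before the start, and capitals mark kappaB matches. The Nfkb2 window held 3 matches, 2 of which overlap by all but 1 base, Tnfaip3 held 2, and Nfkbia and Il6 held 1 each. The matches nearest the start began at position -29 in Nfkbia, -11 in Nfkb2, -12 in Tnfaip3 and -44 in Il6.
Nfkbia (chr12:55492648-55492897, minus strand): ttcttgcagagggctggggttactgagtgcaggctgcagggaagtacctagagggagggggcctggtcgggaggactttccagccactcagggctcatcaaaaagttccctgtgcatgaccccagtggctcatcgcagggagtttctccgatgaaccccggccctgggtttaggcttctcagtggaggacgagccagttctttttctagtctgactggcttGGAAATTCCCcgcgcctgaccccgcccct
Tnfaip3 (chr10:19015411-19015660, minus strand): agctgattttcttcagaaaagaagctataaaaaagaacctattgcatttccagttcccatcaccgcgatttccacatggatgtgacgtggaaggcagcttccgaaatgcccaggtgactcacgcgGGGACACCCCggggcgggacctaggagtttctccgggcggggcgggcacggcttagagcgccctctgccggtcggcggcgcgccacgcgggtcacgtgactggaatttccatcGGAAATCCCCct
Nfkb2 (chr19:46304487-46304736, plus strand): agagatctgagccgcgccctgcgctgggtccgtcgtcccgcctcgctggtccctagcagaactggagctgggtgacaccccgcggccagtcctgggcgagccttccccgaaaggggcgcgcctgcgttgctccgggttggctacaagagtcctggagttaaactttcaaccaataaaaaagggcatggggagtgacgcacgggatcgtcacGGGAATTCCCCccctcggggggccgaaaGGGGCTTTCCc
Il6 (chr5:30012864-30013113, plus strand): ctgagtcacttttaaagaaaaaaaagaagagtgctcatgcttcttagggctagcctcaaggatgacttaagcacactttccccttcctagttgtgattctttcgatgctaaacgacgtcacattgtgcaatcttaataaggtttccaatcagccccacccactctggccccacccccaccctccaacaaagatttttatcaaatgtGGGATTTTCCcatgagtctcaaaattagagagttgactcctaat
Il1b (chr2:129371140-129371389, minus strand): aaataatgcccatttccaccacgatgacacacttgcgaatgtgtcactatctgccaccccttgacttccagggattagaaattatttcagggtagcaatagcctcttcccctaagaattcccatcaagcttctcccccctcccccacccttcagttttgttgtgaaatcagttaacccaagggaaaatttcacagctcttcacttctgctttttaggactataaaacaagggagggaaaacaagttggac

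Il1b (ENSMUSG00000027398, chromosome 2 of mm9 from 129190306 to 129196875, minus strand), the gene of the ligand IL-1 beta, had, with Ptgs2, the largest fitted differences of the 10 genes. It had 12.8 and 26.0 CPM in the control libraries and 64.8 and 70.0 CPM in the Chaf1b-deleted libraries, from 292 and 660 against 1526 and 1292 counts. The deleted libraries were thus above the controls. The controls differed 2.02-fold from each other while the deleted libraries differed 1.08-fold. The means were 19.4 ± 9.29 and 67.4 ± 3.63 CPM (SD, n = 2 each). The fitted log2 fold change was 1.82 with an SE of 0.33, or 3.54-fold. It missed the 0.05 threshold in the quasi-likelihood (QL) test of edgeR, where Benjamini-Hochberg correction over all 16500 genes gave an adjusted p of 0.0779. Without Chaf1b-deleted replicate 1 the log2 value was 1.77. Against the lower control alone (without MIGR1 replicate 2) the log2 value was 2.40, and against the higher control alone it was 1.40. The annotated exons of Gm14047, on the opposite strand, overlap those of Il1b. The strand setting of the counting is not given in the sources used here. Gm14047 had 36 and 24 counts in control and 95 and 236 in Chaf1b-deleted HSPCs, far fewer than Il1b. Il1a (ENSMUSG00000027399, chromosome 2 from 129125346 to 129135708, minus strand), which encodes the other IL-1 ligand, was scarcely detected. Its 12 and 25 counts in control and 24 and 22 in deleted cells corresponded to 0.528 and 0.984 against 1.02 and 1.19 CPM. The groups did not overlap, but the 95% Wilson intervals of the nearest libraries did (0.666 to 1.45 CPM in MIGR1 replicate 2 and 0.685 to 1.52 CPM in Chaf1b-deleted replicate 1). No difference was detected (log2 fold change 0.56 with SE 0.58 and adjusted p = 0.764, QL test). The Wilson intervals cover counting error only. The log2 value of Il1a was 0.57 without Chaf1b-deleted replicate 1. Exons of Gm14023 on the opposite strand overlap Il1a and had 5 and 9 counts in control and 17 and 17 in deleted cells.

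Il1rn (ENSMUSG00000026981, chromosome 2 from 24192373 to 24207014, plus strand) encodes the secreted inhibitor of both IL-1 ligands. Its levels were 104 and 95.6 CPM in the controls and 303 and 222 CPM after deletion. The controls were within 1.08-fold of each other, and both lay below the lower deleted library. On the log2 scale the difference was 1.44 with an SE of 0.26, and the adjusted p was 0.0801 (edgeR QL test). Without Chaf1b-deleted replicate 1 the log2 value was 1.08. Scaled also to exon length (RPKM, CPM per kilobase of annotated exon), Il1rn exceeded Il1b by 4.80 and 2.19 times in the control libraries and by 2.78 and 1.89 times in the deleted libraries. The ratio of antagonist to ligand thus overlapped between groups.

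Among the cytokine genes, Tnf and Il6 differed least between the groups. Tnf (ENSMUSG00000024401, chromosome 17 from 35336326 to 35338952, minus strand), the gene of tumour necrosis factor, had 49.6 and 55.8 CPM in the controls and 66.3 and 56.5 CPM in the deleted libraries. In CPM the nearest libraries of the groups were almost level, with Wilson intervals of 52.9 to 58.7 CPM in MIGR1 replicate 2 and 53.2 to 60.1 CPM in Chaf1b-deleted replicate 2. The log2 fold change was 0.26 (SE 0.23, QL test adjusted p = 0.716) and 0.02 without Chaf1b-deleted replicate 1. Il6 (ENSMUSG00000025746, chromosome 5 from 30339701 to 30346508, plus strand), the gene of a cytokine that was also supplied in the medium as protein, had 13.3 and 18.9 CPM in control and 18.7 and 11.05 CPM in deleted cells. Its groups overlapped, as did those of Tnf once TMM normalization was applied (54.9 CPM in MIGR1 replicate 2 and 53.3 in Chaf1b-deleted replicate 2). Il6 had a log2 fold change of -0.06 (SE 0.37, QL test adjusted p = 0.968). Its sign turned with the library left out, from -0.62 without Chaf1b-deleted replicate 1 to 0.36 without Chaf1b-deleted replicate 2.

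Nfkbia (ENSMUSG00000021025, chromosome 12 from 56590398 to 56593634, minus strand), which encodes IkB alpha, had 113 and 117 CPM in control and 278 and 211 CPM in Chaf1b-deleted HSPCs. The controls were within 1.04-fold of each other, the closest pair of control values among the 10 genes. Its log2 fold change was 1.13 (SE 0.25, QL test adjusted p = 0.130), and 0.79 without Chaf1b-deleted replicate 1. Tnfaip3 (ENSMUSG00000019850, chromosome 10 from 18720716 to 18735463, minus strand) encodes A20, a ubiquitin-editing enzyme that ends NF-kB signalling. It had 45.7 and 40.6 CPM in control and 82.8 and 92.3 CPM in deleted cells, with a log2 fold change of 1.04 (SE 0.20, QL test adjusted p = 0.0988). The order of the deleted libraries turned with the scaling (89.5 and 87.0 CPM after TMM normalization), and the log2 values with 1 library left out stayed between 0.94 and 1.13. Without Chaf1b-deleted replicate 1 the log2 value of Tnfaip3 was 1.01. Nfkb2 (ENSMUSG00000025225, chromosome 19 from 46379227 to 46386580, plus strand), which encodes the p100 precursor of the alternative pathway, had 33.1 and 26.4 CPM in control and 57.1 and 56.3 CPM in deleted cells. Its deleted libraries were within 1.02-fold of each other and above both controls. The log2 fold change was 0.96 (SE 0.23, QL test adjusted p = 0.147), and 0.84 without Chaf1b-deleted replicate 1. The 3' ends of Nfkb2 and of Psd, on the opposite strand, overlap, and Psd had between 49 and 74 counts per library, against 670 to 1345 of Nfkb2.

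Nlrp3 (ENSMUSG00000032691, chromosome 11 from 59355070 to 59380458, plus strand), the sensor of the inflammasome, had 31.1 and 65.4 CPM in the controls and 97.0 and 107 CPM in the deleted libraries. Ptgs2 (ENSMUSG00000032487, chromosome 1 from 151947254 to 151955140, plus strand), the gene of the inducible cyclooxygenase COX-2, which makes the precursor of prostaglandins, had 2.51 and 8.34 CPM in the controls and 19.5 and 17.8 CPM in the deleted libraries. For both genes the control libraries differed by more than the deleted ones, 2.11-fold against 1.10-fold for Nlrp3 and 3.33-fold against 1.10-fold for Ptgs2. The log2 fold change of Nlrp3 was 1.11 (SE 0.33, edgeR QL test, adjusted p = 0.229), and it ranged from 0.67 without MIGR1 replicate 1 to 1.72 without MIGR1 replicate 2. That of Ptgs2 was 1.81 (SE 0.52, edgeR QL test, adjusted p = 0.214) and ranged from 1.19 to 2.91 under the same omissions. Without Chaf1b-deleted replicate 1, the log2 values were 1.07 for Nlrp3 and 1.63 for Ptgs2. With 1 library in an arm, the QL test assumes that the lone library varies like the other group.

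**Figure D1:**
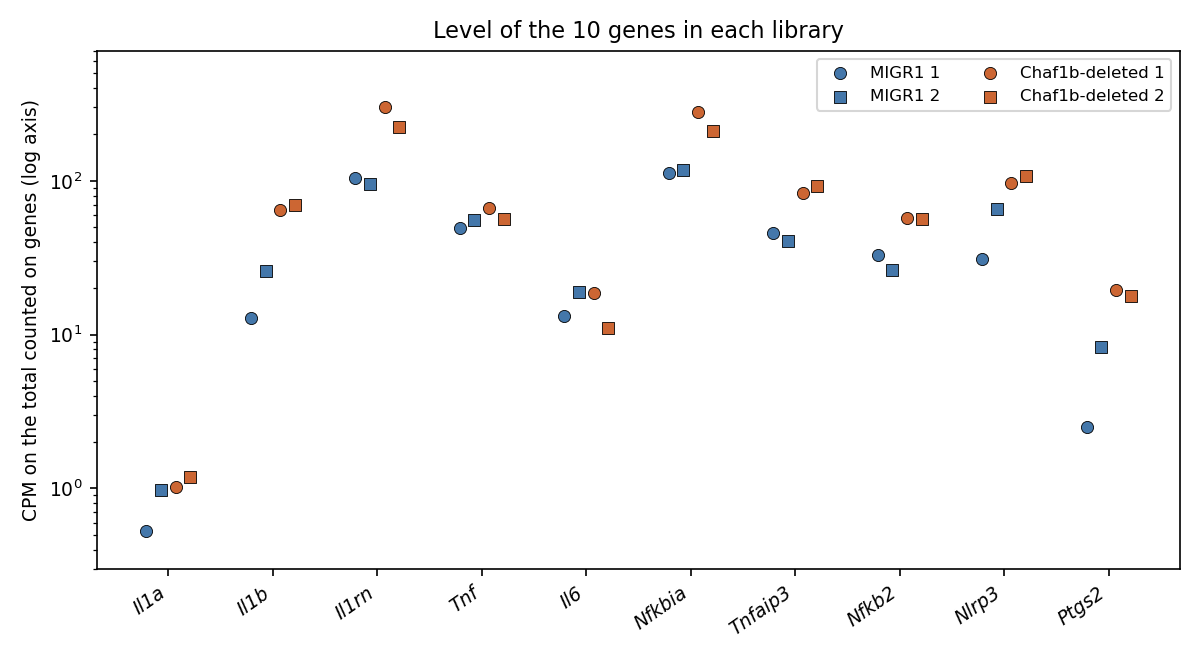
Level of each of the 10 genes in the 4 libraries, as CPM on a log axis, with control libraries in blue, Chaf1b-deleted libraries in orange, circles for replicate 1 and squares for replicate 2. The orange points lie above the blue points for every gene except Il6 (and, after TMM normalization, Tnf), and the blue points are spread most for Ptgs2 (2.51 and 8.34 CPM).

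Because the 10 genes were chosen with earlier results of these data known, their counts beside the shares of all genes are a description only. As a group, 9 of the 10 genes had both deleted libraries above both controls, where 21.4% of the 16500 genes tested did, and 22.9% had them below. After TMM normalization, a comparison added after the data were seen, the number was 8, without Tnf, and the shares of all genes were 22.3% above and 21.4% below. None of the 10 was a DEG, which the study defined by 1.5-fold change and an adjusted p under 0.05, in the QL test. That test called 0.37% of all genes higher and 0.00606% lower. Before adjustment, 7 of the 10 were higher with p under 0.05 (Il1b, Il1rn, Nfkbia, Tnfaip3, Nfkb2, Nlrp3 and Ptgs2), as were 9.15% of all genes. The number called higher depended on the test. The exact test of edgeR called 6 (3.25% of all genes), as did the likelihood ratio test (3.53%) and DESeq2 (3.09%), and the QL test called 7 when weakly counted genes were kept (2.57%). The 6 genes were Il1b, Il1rn, Nfkbia, Tnfaip3, Nfkb2 and Ptgs2 in each of these tests, and Nlrp3 was the seventh. The 10 genes had a median of 1.07 on the log2 scale, against -0.03 over all genes tested. Without Chaf1b-deleted replicate 1 the median of the 10 was 0.93, against -0.02 over all genes tested.

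**Figure D2:**
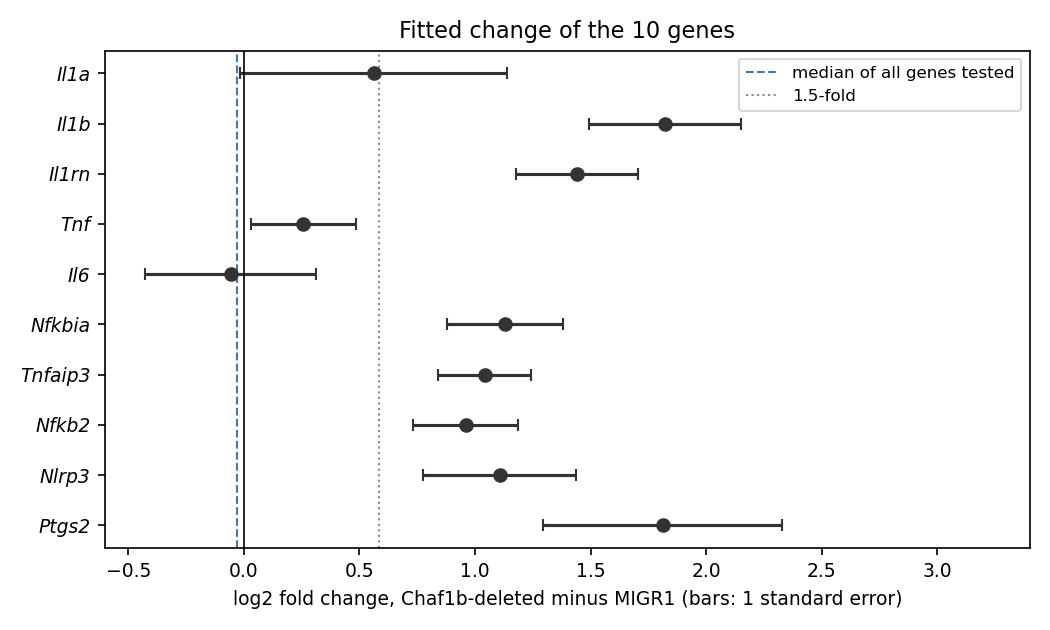
Fitted log2 fold change (Chaf1b-deleted minus control) of the 10 genes, with bars of 1 standard error, the median of all genes tested (-0.03, dashed) and 1.5-fold (dotted). Il1b (1.82) and Ptgs2 (1.81) lie farthest to the right, and Il6 (-0.06) and Tnf (0.26) lie nearest to 0.

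Per kilobase of exon, Nfkbia was the most abundant of the 10 genes in both groups, with a mean of 72.9 RPKM in control and 155 RPKM in Chaf1b-deleted HSPCs. In the controls Tnf (32.1 RPKM) and Il1rn (31.1 RPKM) followed and did not differ beyond the spread of their libraries. Next came Il6 (14.8 RPKM), Nlrp3 (11.9), Il1b (10.2) and Nfkb2 (9.04), of which each overlapped its neighbour, and then Tnfaip3 (5.97), Ptgs2 (1.31) and Il1a (0.383). After deletion Il1rn (81.9 RPKM) stood apart from Tnf (37.5), and Il1b (35.3) reached the level of Tnf, with overlapping libraries. Nlrp3 (25.2 RPKM) stood apart from both neighbours, while Nfkb2 (17.2), Il6 (13.7) and Tnfaip3 (12.1) overlapped in turn. Ptgs2 (4.49) and Il1a (0.560) were again lowest. By mean RPKM, Il1b thus held place 6 in control and place 4 after deletion, and Il6 held places 4 and 7. The libraries of both genes overlapped those of a neighbour in each group, so these places were not resolved.

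The 2 deleted libraries were compared with the same 2 controls, so their differences share the control values. For the 10 genes the median log2 difference from the mean of the controls, after TMM normalization and with 0.5 CPM added, was 1.14 in Chaf1b-deleted replicate 1 and 0.93 in replicate 2. Differences of over 2-fold were present for 7 genes in replicate 1 and for 5 genes in replicate 2. Of all 16500 genes tested, 1071 and 990 had such differences. Il1b differed by 1.92 and 1.83, Ptgs2 by 2.07 and 1.75, Nlrp3 by 1.22 and 1.16 and Tnfaip3 by 1.06 and 1.02 in replicates 1 and 2. Il1rn (1.72 and 1.08) and Nfkbia (1.40 and 0.80) were higher in replicate 1. Nfkb2 differed by 1.06 and 0.84, Il1a by 0.38 and 0.40, Tnf by 0.45 and 0.03 and Il6 by 0.35 and -0.57. For the 20 interferon-stimulated genes the same medians were 3.48 and 0.20, with 20 and 1 genes over 2-fold. Over all genes tested the medians were -0.03 and 0.00476. The difference between the gene lists was not tested.

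**Figure D3:**
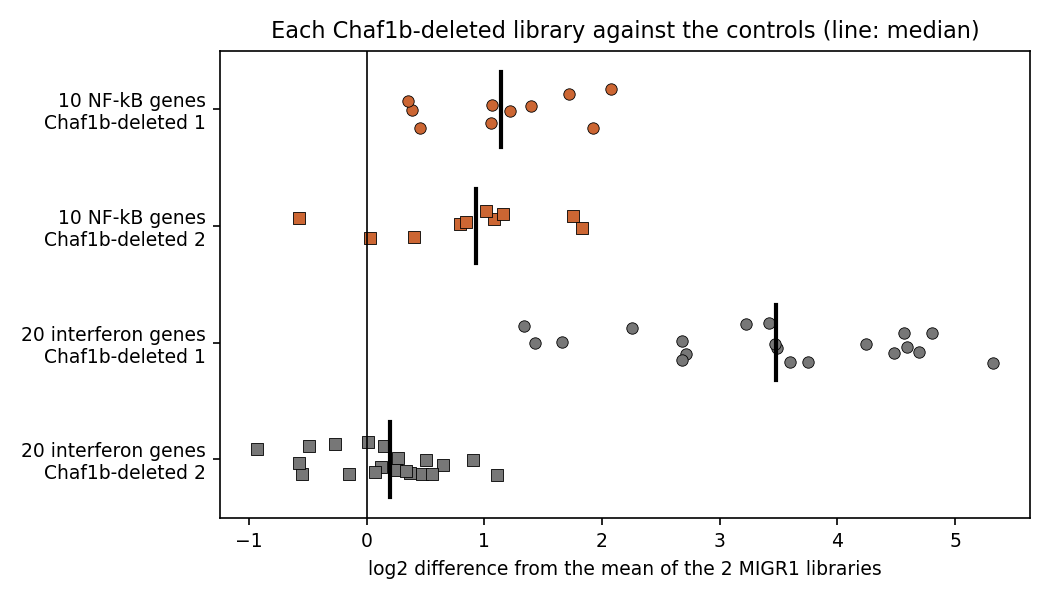
Log2 difference of each Chaf1b-deleted library from the mean of the 2 controls, after TMM normalization with 0.5 CPM added, for the 10 NF-kB genes (orange) and 20 interferon-stimulated genes (grey); circles are replicate 1, squares replicate 2 and lines the medians. The medians of the NF-kB genes are 1.14 and 0.93, and those of the interferon genes are 3.48 and 0.20.

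Markers of other cell types also differed between the libraries, and their counts below stand beside the 21.4% of all genes that were higher and the 22.9% that were lower without overlap. The marker lists, too, were chosen with earlier results of these data known. The dendritic cell list summed to 130 and 685 CPM in the controls and 933 and 411 CPM in the deleted libraries, with 6 of 10 markers higher without overlap. Among them the maturation markers Fscn1 (1.41, 2.64, 25.7 and 26.7 CPM in MIGR1 replicates 1 and 2 and deleted replicates 1 and 2) and Ccl22 (4.44, 6.22, 45.9 and 32.1 CPM) were DEGs, with adjusted p-values of 0.0254 and 0.0330 from the QL test. The neutrophil list summed to 45450 and 52751 CPM in control and 66431 and 50055 CPM in deleted cells, with 6 of 10 markers higher without overlap and Cxcr2 a DEG (log2 fold change 1.52, QL test adjusted p = 0.0429). The monocyte and macrophage list summed to 803 and 1204 CPM against 1902 and 939 CPM, with 3 of 10 markers, Cd14, Adgre1 and Fcgr1, higher without overlap. Cd14 had 15.9, 22.6, 61.3 and 49.7 CPM in that order of libraries, while C1qa (0.66, 23.2, 10.6 and 0.433 CPM) was high in MIGR1 replicate 2 and Chaf1b-deleted replicate 1, and its groups overlapped. The HSPC list summed to 5162 and 4624 CPM in control and 5113 and 4174 CPM in deleted cells, with 2 of 10 markers higher and 1 lower without overlap. Of these Flt3, a cytokine receptor gene, was a DEG, with 4.66 and 5.31 CPM in control and 19.3 and 22.7 CPM in deleted cells (log2 fold change 2.09, QL test adjusted p = 0.0383). Myb went the other way (log2 fold change -0.59, QL test adjusted p = 0.313), and the median log2 fold change of the HSPC list was 0.12. Mast cell and basophil markers summed to 721 to 1056 CPM over the 4 libraries, with 2 of 10 higher and 1 lower without overlap. Stromal markers summed to 135 to 209 CPM, with 2 of 10 higher and 1 lower. Lymphocyte markers summed to 72.1 to 100 CPM, with 4 of 10 higher and 0 lower. Only 4 of the lymphocyte markers passed the filter and were tested, with a median log2 fold change of 1.10. The T cell gene Cd3e had at most 4 counts and the stromal genes Dcn and Lum at most 1 count in a library, and no marker was at 0 in all 4. The part of any of these cell types in the levels of the 10 genes was not tested.

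To place the 10 genes in their pathway, 102 other genes of NF-kB signalling were examined by role, of which 99 were tested. This list was also chosen with earlier results of these data known, so its counts beside the shares of all genes are a description only. The genes named are those with the highest mean CPM, not scaled to length, and with the smallest p of each role. In edgeR's quasi-likelihood test 1 of the 99 was a DEG, higher, and 0 were lower. Before adjustment 34 had p under 0.05 and were higher, 0 were lower with such a p, and 49 were higher and 6 lower without overlap between groups (51 and 6 after TMM normalization). Over all genes, 9.15% were higher at such a p, 21.4% were higher without overlap and 22.9% were lower, and the counts by role below stand beside these shares. Their median log2 fold change was 0.38. In Chaf1b-deleted replicate 2 alone, their median log2 difference from the mean of the controls was 0.26, against 0.00476 over all genes tested. The 3 genes not tested, Lta, Csf3 and Hpgd, had at most 13 counts in a library. The DEG was Nfkbiz, which encodes the nuclear IkB zeta, a coactivator of secondary NF-kB target genes. It had 35.5 and 30.3 CPM in control and 83.6 and 105 CPM in deleted cells. The log2 fold change was 1.53 (SE 0.21, QL test adjusted p = 0.0413), and 1.59 without Chaf1b-deleted replicate 1. This call was lost with the replicate block (adjusted p = 0.0802), with 10 counts required in every library (0.0651), with DESeq2 size factors (0.0503) and with library size only (0.0583), all in the QL test.

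Among the NF-kB subunits, 4 of 4 were higher without overlap (3 of 4 after TMM normalization, 21.4% of all genes before it) and 2 at an unadjusted p under 0.05. Relb, the partner of the Nfkb2 product, had 7.34 and 7.40 CPM in control and 23.9 and 20.4 CPM in deleted cells (log2 fold change 1.62 with SE 0.28 and adjusted p = 0.0771, QL test). The subunit gene of highest CPM, Nfkb1, had a log2 fold change of 0.22. Of the IkB proteins, 3 of 5 were higher at an unadjusted p under 0.05. Of the kinases, 2 of 9 were, and the median of the group was -0.08. The kinase with the smallest p was Map3k14, whose product NIK starts the alternative pathway, with 11.2 and 16.5 against 28.5 and 27.1 CPM (log2 fold change 1.04, QL test adjusted p = 0.187). Its exons overlap those of 1700028N14Rik. Ikbke, the kinase gene of highest CPM, had a log2 fold change of -0.21. The adaptors had a median of 0.00210, with 2 of 11 higher at an unadjusted p under 0.05. Traf1, an adaptor of TNF receptors, had 4.31 and 4.998 CPM in control and 14.8 and 13.8 CPM in deleted cells (log2 fold change 1.65, QL test adjusted p = 0.0947), while Tab2, the adaptor gene of highest CPM, had a log2 fold change of 0.00210.

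Of the receptors, 4 of 11 were higher at an unadjusted p under 0.05. Il1r1, the signalling receptor of IL-1, had 11.1 and 10.4 CPM in control and 20.4 and 33.9 CPM in deleted cells (log2 fold change 1.34, QL test adjusted p = 0.114). Tnfrsf1b, the receptor gene of highest CPM, had a log2 fold change of 0.19. Of the other cytokines, 7 of 14 tested were higher at an unadjusted p under 0.05. Il36g, an IL-1 family ligand and the one of highest CPM, had 33.6 and 46.8 CPM in control and 122 and 97.9 CPM in deleted cells (log2 fold change 1.49, QL test adjusted p = 0.0773). Of the genes listed as feedback inhibitors, a role that was not tested here, 3 of 12 were higher at an unadjusted p under 0.05. Zfp36, whose product tristetraprolin destabilizes cytokine mRNA, had 51.1 and 74.4 against 166 and 125 CPM (log2 fold change 1.25, QL test adjusted p = 0.135), and Tnfaip2 had the highest CPM (log2 fold change 0.74). Of the inflammasome genes other than Nlrp3, 1 of 10 was higher at such a p, near the 9.15% of all genes, which was P2rx7, an ATP-gated channel upstream of Nlrp3 (log2 fold change 1.52, QL test adjusted p = 0.172). Txnip, whose CPM was highest among them, had 195 and 404 CPM in control and 309 and 380 CPM in deleted cells, and its groups overlapped. Its exons overlap Gm15441. Of the prostaglandin genes, 2 of 9 tested were higher at such a p. Ptgs1, the gene of the constitutive cyclooxygenase, had 159 and 167 against 228 and 225 CPM (log2 fold change 0.50, QL test adjusted p = 0.379), and Ptger4, a prostaglandin E receptor gene that overlaps Gm15937 and Ttc33, had a log2 fold change of 0.67. Of the other target genes, 8 of 14 were higher at such a p. Marcksl1 had the smallest p, with 100.1 and 89.1 CPM in control and 223 and 234 CPM in deleted cells (log2 fold change 1.30, QL test adjusted p = 0.0620).

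**Figure D4:**
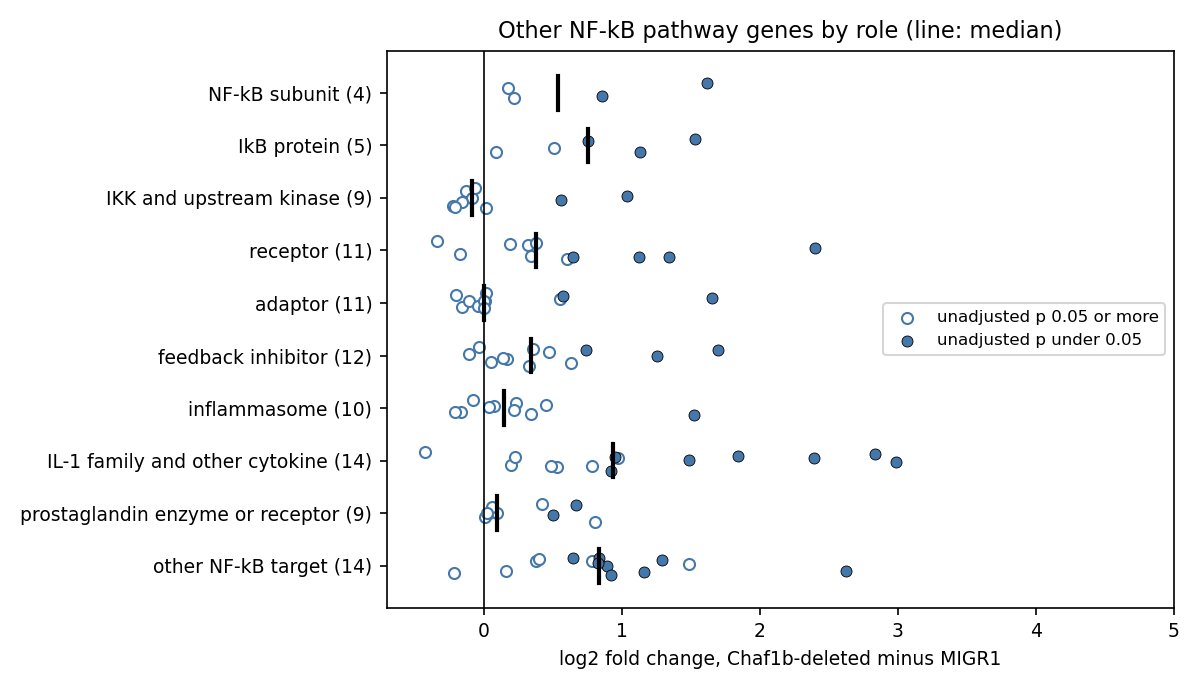
Fitted log2 fold change (Chaf1b-deleted minus control) of the 99 tested NF-kB pathway genes by role, with the number of genes in brackets; filled points have an unadjusted p under 0.05 in the QL test and lines are medians. Kinases (median -0.08) and adaptors (0.00210) centre near 0, while cytokines (0.94) and other target genes (0.84) centre to the right.

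The genes whose levels over the 4 libraries lay closest to those of Il1b, by Euclidean distance of centred log2 CPM among the named genes tested, were Ephx1 (distance 0.16), Il4i1 (0.21) and Cyp27a1 (0.23). Ephx1 had 0.880 and 2.05 CPM in control and 4.50 and 5.41 CPM in deleted cells. Il4i1, which shares exons with Atf5 and Nup62, had 4.62 and 10.1 against 28.1 and 25.4 CPM. Cyp27a1 had 1.72 and 3.86 against 8.33 and 11.1 CPM. With 4 libraries this likeness is a description only.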

How the data were processed

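Total RNA libraries (TruSeq Stranded, ribosomal RNA depleted) were made by the authors, who aligned reads to mm9 with STAR and counted them per gene with HTSeq; the deposited values are these raw counts, 1 library per table. The annotation release and strand setting of the counting are not given in the sources used here. Symbols and exon lengths came from the NCBIM37 annotation, which named 33068 of 43629 identifiers, and promoter sequences from RefSeq (GRCm38.p6). HTSeq's summary lines were left out. They held 54.5% and 53.6% of the reads in MIGR1 replicates 1 and 2, and 49.7% and 58.2% in Chaf1b-deleted replicates 1 and 2. In the same order, 42.3%, 42.1%, 35.8% and 48.3% of the uniquely aligned reads lay outside genes, so the 2 deleted libraries differed most from each other.

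Genes were filtered with a minimum count of 10, normalized by TMM (factors 0.925 to 1.06) and compared by glmQLFTest in edgeR 4.0.16 (R 4.3.3) with no covariate. DEGs had at least 1.5-fold change and a Benjamini-Hochberg adjusted p under 0.05 over 16500 genes. The procedure was tested on data simulated with a common dispersion and with planted changes larger than those of the 10 genes. It does not show how often changes of their size would be called. Alternatives were other normalizations, filters and thresholds, edgeR's exact, likelihood ratio and bias-adjusted tests, DESeq2 1.42.0, the replicate block and each library left out in turn. The 10 genes and all lists were chosen with earlier results of these data known. From the pathway list, DEGs and, for each role, the gene of highest mean CPM and that with the smallest p were named, and of the marker lists summed levels. Fscn1, Ccl22, Cxcr2, Cd14, Adgre1, Fcgr1, C1qa, Flt3, Myb, Kit, Cd3e, Dcn, Lum, Lta, Csf3 and Hpgd were named after their values were seen. Levels of 1 further marker are not reported here. With 2 against 2 libraries no exact permutation test can reach p under 0.05.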

Additional observations from a re-analysis of the deposited data

How the results depend on the processing

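Of 154 values of log2 fold change recomputed for the 10 genes and Nfkbiz, 116 kept their direction and their side of the threshold, 32 passed it, 4 no longer did and 2 reversed. Both reversals were of Il6, 0.20 without MIGR1 replicate 2 and 0.36 without Chaf1b-deleted replicate 2, and with 1 library left out its values ranged from -0.62 to 0.36. The 10 genes had 0 calls lower under every setting. Calls higher are given for the 10 genes, the pathway list and all genes, with calls lower over all genes last. They were 0, 1, 61 and 1 as reported; 7, 21, 808 and 79 without a low-count filter; 6, 14, 537 and 37 with edgeR's exact test; 6, 14, 583 and 40 with its likelihood ratio test; 6, 14, 471 and 32 with DESeq2; and 0, 0, 3 and 0 with 10 counts in every library. DESeq2 size factors gave 0, 0, 27 and 1, library size only 0, 0, 30 and 1, and 2-fold with an adjusted p under 0.01 gave 0 throughout. Upper-quartile normalization and the bias-adjusted quasi-likelihood method each called 2 pathway genes and 0 of the 10. With the replicate block the numbers were 0, 0, 14 and 0. Over 16500 genes, the deviations of same-numbered libraries from the group means correlated with r = 0.0181. This single value cannot show whether same-numbered libraries shared a culture or preparation. With 1 library left out in turn, the numbers ranged from 0 to 3 for the 10 genes, 3 to 12 for the pathway list, 125 to 331 for all genes higher and 6 to 42 for all genes lower. The calls among the 10 were Il1b and Il1rn without MIGR1 replicate 1, Il1b, Nlrp3 and Ptgs2 without MIGR1 replicate 2, and Il1rn and Nfkbia without Chaf1b-deleted replicate 2. Such a fit assumes that the lone library varies like the other group. The cause of these changes was not tested. Il1a had 12 to 25 counts per library. Its log2 value was 0.19 without MIGR1 replicate 1 and 1.06 without MIGR1 replicate 2.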
